A study of Caenorhabditis elegans with 16 samples.

Results

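The microRNAs described here are the arms of the hairpins mir-60 and mir-240 of Caenorhabditis elegans, 4 of the 434 mature miRNAs counted in 16 small RNA libraries. They were chosen by name (cel-miR-60-5p, cel-miR-60-3p, cel-miR-240-5p and cel-miR-240-3p, written below without cel), because earlier results of these data had shown their 5p arms to be high wherever RNA was pulled down with probes against gfp. The contrast of gfp probes with probes against endogenous transcripts is therefore given as a description, without a test, and only the comparisons within a probe class were tested.

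A miRNA hairpin is cut into a duplex of a 5p and a 3p arm. As a rule one arm, the guide, is kept by an Argonaute protein and pairs with messenger RNAs, while the other, the passenger, is degraded, so that the reads of both arms show which strand of the duplex was recovered. mir-60 is known as a miRNA of the worm intestine with a part in the response to oxidative stress. mir-240 lies in a cluster with mir-786, a miRNA of the intestine needed for the regular rhythm of defecation.

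All libraries came from young adult worms, in which RNA and bound factors were crosslinked by ultraviolet light before 1 transcript was captured with antisense DNA probes and the small RNA in the eluate was sequenced. The gfp probes were used in 6 libraries. They were applied to N2 worms, the wild type, which carry no gfp sequence and so served as the no-target control (n = 3), to strain BS1080, which expresses a gld-1::gfp transgene (n = 2), and to strain DG3913, in which the lin-41 gene itself carries a gfp tag (gfp::lin-41, n = 1). Probes against an endogenous transcript were used in 10 libraries. Of these, lin-41, alg-1 and gld-1 were each captured from N2 (n = 2 each), and gld-1 was captured from worms of an N2 background whose miR-84 site in the gld-1 transcript had been edited by CRISPR, either to destroy pairing with the seed (seed destruction, n = 2) or to convert the site for another miRNA (changed specificity, n = 2). The paper's miRNA figure describes 2 independent pulldowns per target, but the labels do not say whether replicates came from separate cultures. The p-values therefore measure the spread between these libraries, which may be that between pulldowns rather than between cultures. With 1 library, gfp::lin-41 gives values and no test.

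Libraries held between 12474 and 2081849 miRNA reads. The control libraries were the shallowest, with 73899, 42622 and 12474 reads, and a count of 0 allows a share of up to 0.0241% in the shallowest and 1.44e-04% in the deepest library. Intervals and such limits cover counting error only. Shares are of all miRNA reads, so an abundant miRNA lowers the share of every other. let-7-5p reached 1543598 reads in a gfp-probe library and 1151265 in a library with endogenous probes. Levels are given as CPM, reads scaled to a common library size, on a log2 scale, scaled by TMM factors that ranged from 0.155 to 5.32, and a library with 0 reads of a miRNA sits at 2.69 on this scale. Most library names begin with E, PD1, PD2 or PD3, a prefix whose meaning is not given in the sources used here. All 3 libraries with prefix E were made with gfp probes, PD1 and PD2 hold both probe classes, and PD3 and the libraries without a prefix hold endogenous probes only.

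In the Ensembl annotation of WBcel235, mir-60 lies on the minus strand of chromosome II (6328702 to 6328799), with miR-60-5p at 6328756 to 6328778 and miR-60-3p at 6328717 to 6328739. The noncoding RNA C32D5.15 (6328709 to 6328794) lies inside mir-60 on the opposite strand. Whether strand was used in counting is not given in the sources used here, so reads from C32D5.15 cannot be told apart from those of mir-60. mir-240 lies on the plus strand of chromosome X (7882622 to 7882718), with miR-240-5p at 7882643 to 7882665 and miR-240-3p at 7882682 to 7882703. mir-786 follows on the same strand after 32 bases (7882751 to 7882840).

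miR-60-5p was among the most abundant miRNAs with gfp probes and close to absent with all others. In the control libraries it had 20097, 224 and 969 reads, in gld-1::gfp 3709 and 392, and in gfp::lin-41 5005. With endogenous probes it had 2 and 0 reads for lin-41, 0 and 3 for alg-1, 1 and 5 for gld-1, 0 and 1 in seed destruction, and 0 and 3 in changed specificity. Every gfp-probe library thus lay far above every library of the endogenous probes, and 4 of the 10 latter had 0 reads. As a share of the library, miR-60-5p took 27.2%, 0.526% and 7.77% of the control reads, 0.195% and 0.0687% of the gld-1::gfp reads and 0.240% of the gfp::lin-41 reads, against 0.00238% at most with endogenous probes. It ranked between first and place 23 among the miRNAs of a gfp-probe library. Among the endogenous probes its place was 88 at best.

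Pooled over libraries, miR-60-5p stood at 6496 CPM with gfp probes (30396 of 4679084 reads, unscaled) and at 3.43 CPM with endogenous probes (15 of 4377300), a ratio of 1896 with an exact 95% counting interval of 1149 to 3387. The deepest libraries and control replicate 1 dominate this pooled value. Without the 3 libraries of prefix E, the ratio was 739 (447 to 1323). It was 156 (78.9 to 362) within PD1 and 3196 (874 to 26549) within PD2, so the gap was present in both prefixes that hold both probe classes. On the normalised scale the gfp-probe libraries ran from 10.11 to 15.93 with a median of 12.34, and the others from 2.69 to 4.66 with a median of 3.35. The gap was also present within N2 worms alone. There miR-60-5p had 224 to 20097 reads in the 3 gfp-probe libraries and at most 5 in the 6 libraries with endogenous probes. Pulldowns from whole worms give no level per cell, and the cause of the gap was not tested.

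**Figure D1:**
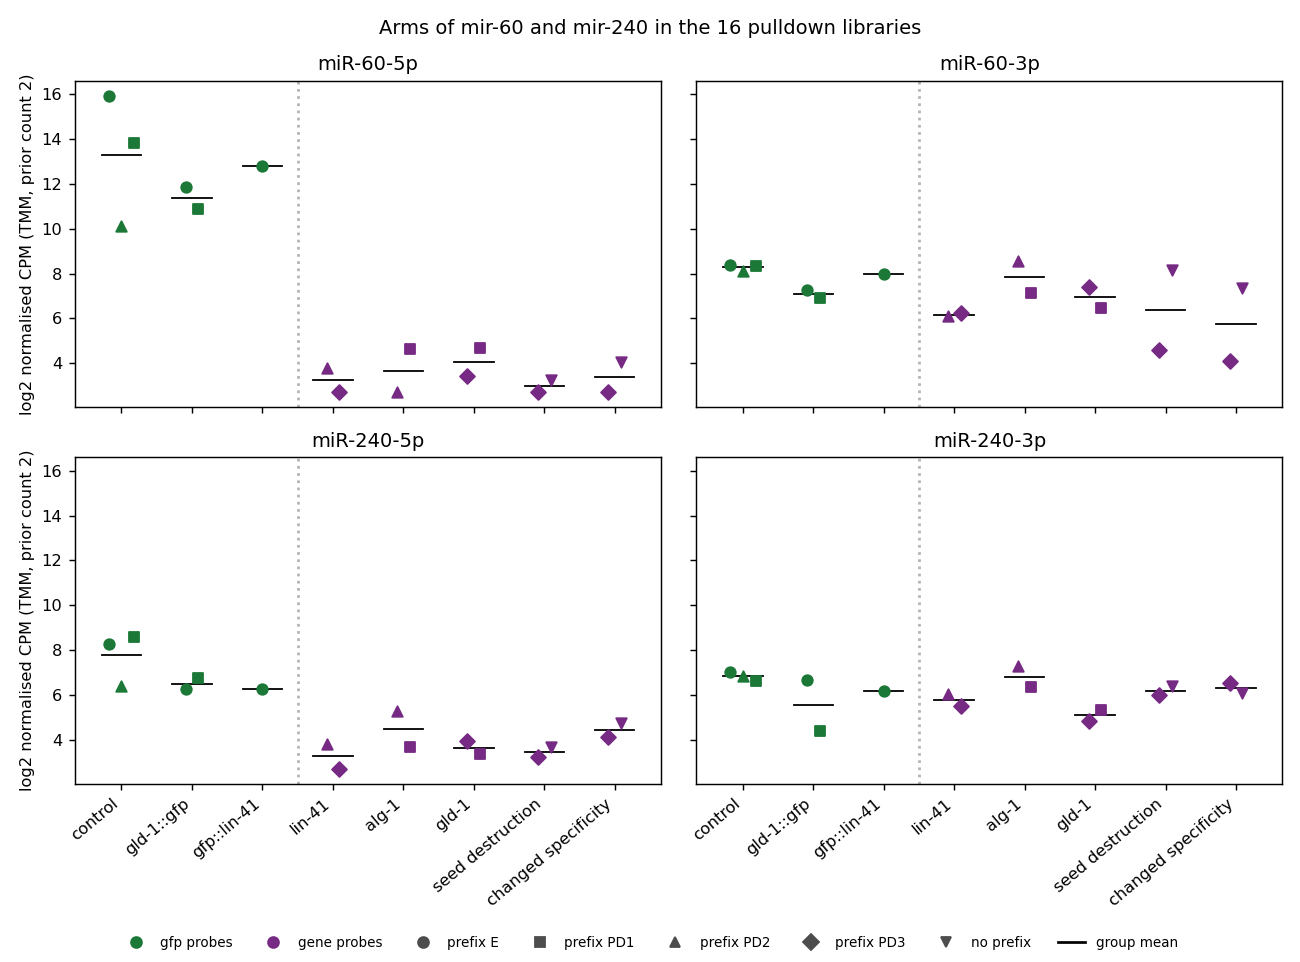
Normalised level (log2 CPM) of each arm of mir-60 and mir-240 in all 16 libraries, 1 point per library, grouped by the RNA captured. The 6 gfp-probe libraries of miR-60-5p sit between 10.11 and 15.93, all above the 10 others, while both 3p arms overlap between the probe classes.

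The other arm of the same hairpin, miR-60-3p, showed no such gap. It had 106, 55 and 21 reads in the control, 145 and 24 in gld-1::gfp and 173 in gfp::lin-41. With endogenous probes it had 17 and 7 reads for lin-41, 101 and 22 for alg-1, 38 and 22 for gld-1, 6 and 90 in seed destruction, and 2 and 47 in changed specificity. The probe classes overlapped, at 6.91 to 8.40 with gfp probes (median 8.05) and 4.10 to 8.54 with endogenous probes (median 6.81) in log2 CPM. The highest library of all was alg-1 replicate 1 and the lowest was changed specificity replicate 1. The pooled ratio of gfp to endogenous probes was 1.39 (1.21 to 1.60), and it was 0.937 within PD1 and 13.3 within PD2. Pooled ratios use unscaled reads, and lin-41 replicate 1 held 1055420 of the 1216065 reads with endogenous probes in PD2. On the log2 CPM scale, control replicate 2 (8.11) lay below alg-1 replicate 1 (8.54) and above lin-41 replicate 1 (6.11).

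miR-240-5p followed the pattern of miR-60-5p at a much lower level. It had 98, 16 and 25 reads in the control, 69 and 21 in gld-1::gfp and 49 in gfp::lin-41. With endogenous probes it had 2 and 0 reads for lin-41, 9 and 1 for alg-1, 2 and 1 for gld-1, 1 and 2 in seed destruction, and 2 and 6 in changed specificity. On the normalised scale the gfp-probe libraries (6.25 to 8.58, median 6.57) all lay above the others (2.69 to 5.29, median 3.73). This separation rests on the TMM scaling: as a plain share of reads, gfp::lin-41 (0.00235%) and both gld-1::gfp libraries (0.00364% and 0.00368%), 3 of the 6, lay below alg-1 replicate 1 (0.00560%). Pooled over libraries, miR-240-5p had 278 reads with gfp probes and 26 with the others, or 59.4 CPM against 5.94 CPM, with a counting interval of 6.68 to 15.6 for the ratio. Within PD1 this ratio, of unscaled reads, was 21.1 (5.51 to 179) and within PD2 41.5 (18.1 to 98.9). On the log2 CPM scale, control replicate 2 of PD2 (6.41) lay above alg-1 replicate 1 (5.29) and lin-41 replicate 1 (3.79).

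miR-240-3p did not separate the probe classes. It had 40, 22 and 6 reads in the control, 95 and 3 in gld-1::gfp and 46 in gfp::lin-41. With endogenous probes it had 16 and 4 reads for lin-41, 41 and 12 for alg-1, 5 and 9 for gld-1, 19 and 25 in seed destruction, and 16 and 18 in changed specificity. In log2 CPM the gfp-probe libraries ran from 4.37 to 7.03 (median 6.64) and the others from 4.81 to 7.28 (median 6.05), so that the lowest library was a gfp-probe library and the highest an alg-1 library. The pooled ratio, of unscaled reads, was 1.20 (0.976 to 1.48), with 0.393 within PD1 and 11.0 within PD2. On the log2 CPM scale, control replicate 2 of PD2 (6.84) lay below alg-1 replicate 1 (7.28) and above lin-41 replicate 1 (6.04).

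Against the 112 miRNAs with enough reads to be fitted, miR-60-5p had the largest mean excess in log2 CPM with gfp over endogenous probes (9.11) and miR-240-5p the third largest (3.24). In the lower direction the largest was that of miR-70-5p (-5.81). miR-54-5p stood between them at 3.38 and miR-51-5p followed at 2.26. The 3p arms were placed at 11 (miR-60-3p, 1.22) and 34 (miR-240-3p, 0.26). In the edgeR model, which averages group means, the differences were 10.45 for miR-60-5p, 0.82 for miR-60-3p, 3.66 for miR-240-5p and 0.32 for miR-240-3p, where the median over the 112 miRNAs was -0.16. For miR-60-5p, with 0 reads in 4 libraries, the fitted size depends on the prior count. All gfp-probe libraries lay above all others for 3 miRNAs (2.68% of those fitted), which were both 5p arms and miR-54-5p, and below all others for miR-245-3p (0.893%). Since this contrast chose the members, nothing is read from their place among the 3. Without prefix E (3 against 10 libraries) the count of miRNAs above was 5 of 112, and in N2 worms alone (3 against 6) it was 7 of 112. Fewer libraries separate more easily. miR-60-5p and miR-240-5p were on both lists, from which nothing is read either. With plain library totals miR-60-5p was the 1 miRNA of 112 left. These settings were chosen after the values had been seen. Across all miRNAs the fit called 18 higher with gfp probes (16.1%) and 14 lower (12.5%). These counts include the members, which this contrast chose, so no call of a member is read from them.

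**Figure D2:**
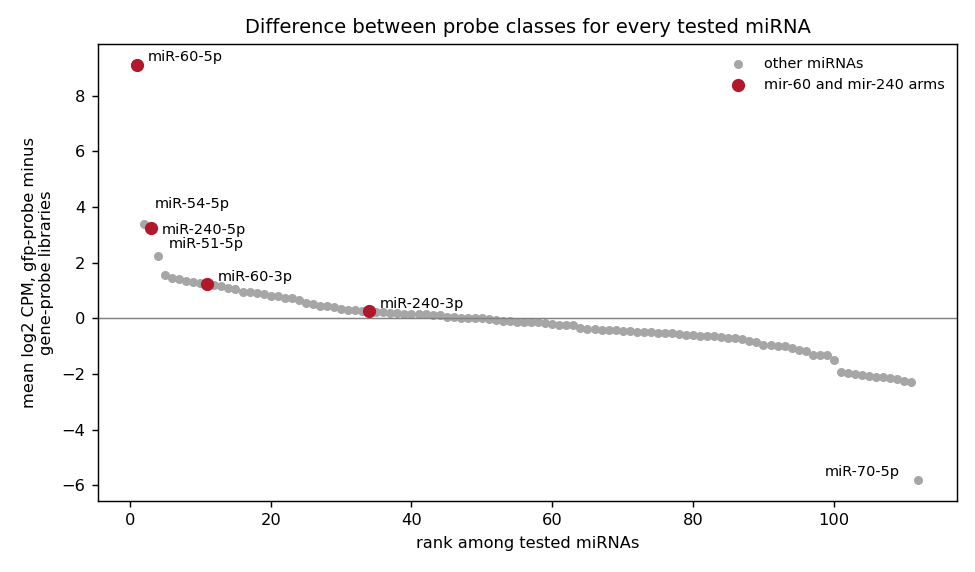
Mean log2 CPM of the 6 gfp-probe libraries minus that of the 10 libraries with endogenous probes, for each of the 112 fitted miRNAs in order of the difference, with the arms of mir-60 and mir-240 in red. miR-60-5p stands apart at 9.11, miR-240-5p (3.24) is just behind miR-54-5p (3.38), and miR-60-3p and miR-240-3p lie on the slope that the other miRNAs form.

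The ratio of both arms within a library needs no scaling between libraries, since its arms share 1 depth. It was taken as log2 of 5p over 3p reads, with 0.5 added to each. For mir-60 the 5p arm made up 99.5%, 80.3% and 97.9% of the reads of both arms in the control, 96.2% and 94.2% in gld-1::gfp and 96.7% in gfp::lin-41. With endogenous probes its share ran from 0% to 18.5% with a median of 1.83%. The dominant arm of mir-60 was thus the 5p arm in 6 of 6 gfp-probe libraries and the 3p arm in 10 of 10 others. Some of the latter rest on few reads. The 5p and 3p arms had 0 and 2 reads in changed specificity replicate 1, and 0 and 6 in seed destruction replicate 1. They had 0 and 7 in lin-41 replicate 2, but 0 and 101 in alg-1 replicate 1. The mean log2 ratio was 4.77 ± 1.82 (SD, n = 6) with gfp probes and -3.95 ± 1.75 (SD, n = 10) with endogenous probes.

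For mir-240 the shift went the same way and was smaller. The 5p arm made up 71.0%, 42.1% and 80.6% of the reads of both arms in the control, 42.1% and 87.5% in gld-1::gfp and 51.6% in gfp::lin-41. With endogenous probes the share ran from 0% to 28.6% with a median of 10.6%. The 5p arm was ahead in 4 of 6 gfp-probe libraries and in 0 of 10 others, and the ranges of the probe classes did not overlap. Reads were few here as well, with 0 of the 5p arm and 4 of the 3p arm in lin-41 replicate 2. The mean log2 ratio was 0.84 ± 1.31 (SD, n = 6) against -2.62 ± 0.81 (SD, n = 10).

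**Figure D3:**
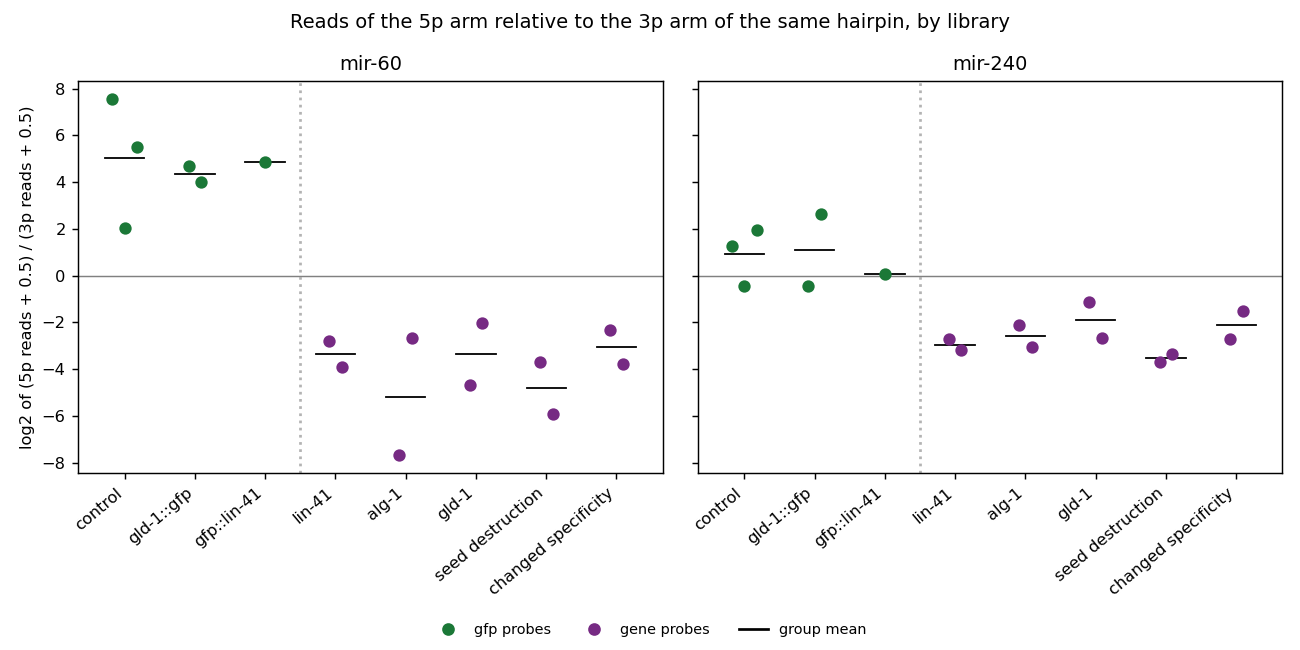
Log2 ratio of 5p to 3p reads of mir-60 and mir-240 in each library, 1 point per library, by the RNA captured. The mir-60 ratios lie between 2.02 and 7.56 with gfp probes and between -7.67 and -2.03 with endogenous probes, and those of mir-240 between -0.46 and 2.62 and between -3.70 and -1.14.

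Both arms were fitted for 22 hairpins. The difference in mean ratio between the probe classes was 8.71 for mir-60, the largest in size, and 3.46 for mir-240, the fourth, with mir-70 (-8.27) and mir-51 (4.33) between them. The median over the 22 hairpins was 0.15. mir-60 and mir-240 were the 2 hairpins whose ratio was higher in every gfp-probe library than in every other library, and 0 hairpins were lower in every one. The ratio draws on the same reads that chose the members, so this too is a description.

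**Figure D4:**
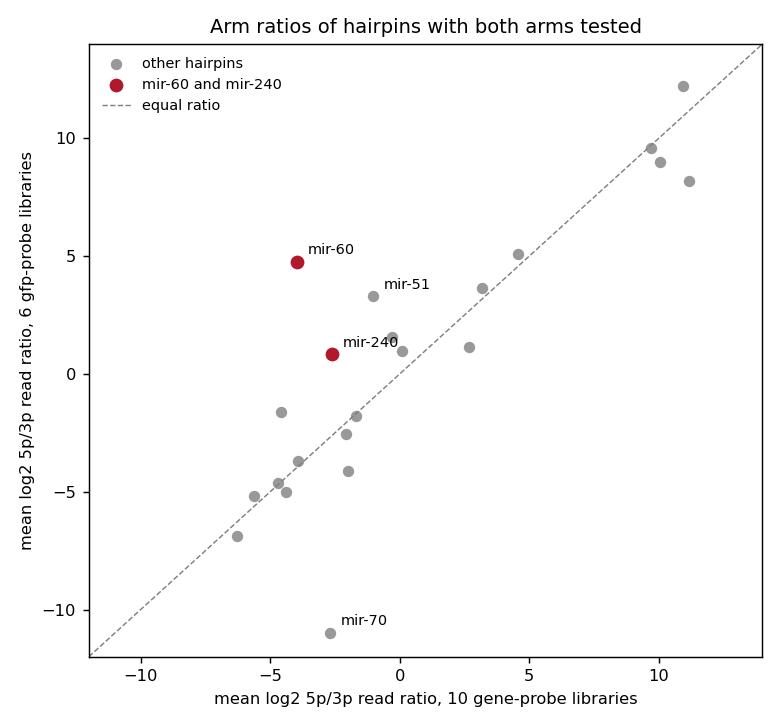
Mean log2 ratio of 5p to 3p reads in the 6 gfp-probe libraries against that in the 10 libraries with endogenous probes, 1 point for each of 22 hairpins with both arms fitted and a dashed line of equal ratio. mir-60 (4.77 against -3.95), mir-51 and mir-240 (0.84 against -2.62) lie farthest above it, followed by mir-54 (-1.60 against -4.58), and mir-70 lies farthest below.

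Within the gfp probes, the design compares worms that carry the gld-1::gfp transcript with control worms that carry no target. Of the 4 arms, 0 were called, where 14 of all 112 miRNAs were (12.5%). In log2 CPM, miR-60-5p stood at 15.93, 10.11 and 13.84 in the control and at 11.87 and 10.87 in gld-1::gfp. The control range enclosed both gld-1::gfp values, and the control SD was 2.95. The fitted difference was -3.22 (SE 1.39, adjusted p = 0.145, edgeR), and it was -4.06 within prefix E and -2.97 within PD1, so gld-1::gfp was lower in both of the prefixes in which the groups met. The value depended on single control libraries. Without control replicate 1 it was -1.49 with an adjusted p of 0.405 (edgeR), and without control replicate 2, which alone carries prefix PD2 in this comparison, it was -3.78 with an adjusted p of 0.00304 (edgeR). With the prefix as a factor it was -3.49 with an adjusted p of 6.23e-12 (edgeR). The groups met directly in prefixes E and PD1 alone, with 1 library of each group in each. That p-value therefore says little about the spread between replicates, and nothing is read from its size. Over all alternatives the adjusted p ran from 6.23e-12 to 0.415.

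The other arms were lower in gld-1::gfp by less. miR-60-3p stood at 8.40, 8.11 and 8.34 in the control and at 7.26 and 6.91 in gld-1::gfp, a fitted difference of -1.22 (SE 0.93, adjusted p = 0.416, edgeR). These ranges did not meet, but the difference was not past the threshold in a model where the spread is shared by all groups. miR-240-5p stood at 8.28, 6.41 and 8.58 against 6.25 and 6.73, a fitted difference of -1.57 (SE 0.87, adjusted p = 0.223, edgeR), and miR-240-3p at 7.03, 6.84 and 6.60 against 6.68 and 4.37, a difference of -0.89 (SE 0.81, adjusted p = 0.513, edgeR). In both of these the groups overlapped. Without gld-1::gfp replicate 1 the difference of miR-240-5p was -0.85 and that of miR-240-3p -2.44, and without gld-1::gfp replicate 2 that of miR-240-3p was -0.18, none of them past the threshold. The median over all 112 miRNAs was -0.30. With plain library totals all 4 arms passed the threshold as lower in gld-1::gfp, at -6.49, -4.61, -5.04 and -4.16 in the order given, but 85 of the 112 miRNAs were then called.

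The order of the groups by mean level of miR-60-5p was control, gfp::lin-41, gld-1::gfp, and then gld-1, alg-1, changed specificity, lin-41 and seed destruction. The control enclosed gfp::lin-41, gfp::lin-41 lay above both gld-1::gfp libraries, and each of the last 5 groups overlapped its neighbour, so that the gap between gld-1::gfp (10.87 at the lowest) and gld-1 (4.66 at the highest) divided the order. For miR-240-5p the 3 gfp-probe groups again came first, and gfp::lin-41 (6.26) was followed by alg-1 (5.29 at the highest). For the 3p arms the probe classes were mixed: alg-1 stood among the gfp-probe groups for miR-60-3p, and alg-1, both edits and lin-41 did so for miR-240-3p. The SD within groups, over all groups with replicates, was 1.67 for miR-60-5p, 1.28 for miR-60-3p, 0.81 for miR-240-5p and 0.68 for miR-240-3p in log2 CPM.

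Among the endogenous probes, lin-41 and alg-1 captures were compared with gld-1 captures of the same strain. For lin-41, 0 of the 4 arms were called, beside 17 of 112 miRNAs (15.2%). The differences were -1.16 for miR-60-5p (adjusted p = 0.840), -0.92 for miR-60-3p (0.694), -0.27 for miR-240-5p (0.946) and 0.84 for miR-240-3p (0.694), all from edgeR. For alg-1, 0 of 4 were called as well, beside 20 of 112 (17.9%). The largest difference was that of miR-240-3p, which stood at 7.28 and 6.33 in alg-1 and at 4.81 and 5.33 in gld-1. The alg-1 libraries lay above both gld-1 libraries, by 2.00 in the fit (SE 0.93, adjusted p = 0.181, edgeR). The other arms differed by -0.63 (miR-60-5p, adjusted p = 0.890), 1.03 (miR-60-3p, 0.589) and 1.70 (miR-240-5p, 0.419) in the same edgeR fit. Without alg-1 replicate 1 the last 2 fell to 0.14 and 0.02, so that this library carried both differences. With 0 to 5 reads of miR-60-5p in each of these libraries, differences in it were not detectable at this depth. miR-240-5p, with 0 to 9 reads, was little better placed.

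The edits of the miR-84 site were compared with the unedited site under the same gld-1 probes. In seed destruction 0 of the 4 arms were called by edgeR, beside 2 of 112 miRNAs (1.79%), and 6 of the 112 had an unadjusted p under 0.05. In changed specificity 0 of 4 were called, beside 3 of 112 (2.68%). miR-60-3p was the arm that varied most here. It stood at 4.60 and 8.15 in seed destruction, at 4.10 and 7.36 in changed specificity and at 7.42 and 6.48 in gld-1. In both edits the replicate with prefix PD3 was low and the one without prefix was high. The replicates of seed destruction lay on either side of both unedited values, whereas the higher one of changed specificity lay between them. The fitted differences were 0.26 in seed destruction (SE 0.99, adjusted p = 0.997, edgeR) and -0.51 in changed specificity (SE 1.00, adjusted p = 0.889, edgeR). Within PD3, where all 3 genotypes meet, the edited worms were lower by single-library differences of -2.82 and -3.32. With the prefix as a factor the first turned negative and both passed the threshold, at -3.11 (adjusted p = 0.0150, edgeR) and -3.90 (adjusted p = 0.00110, edgeR). In these fits edited and unedited worms met directly in PD3 alone, with 1 library of each genotype. Those libraries had 6 reads in seed destruction, 2 in changed specificity and 38 in gld-1, so little is read from these p-values. The libraries without prefix hold no unedited worms, so prefix and edit cannot be told apart there.

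The other arms did not pass the threshold in either edit. In seed destruction the differences were -2.67 for miR-60-5p (adjusted p = 0.997), -0.39 for miR-240-5p (0.997) and 1.25 for miR-240-3p (0.861) by edgeR. In changed specificity they were -0.96 for miR-60-5p (adjusted p = 0.889), 1.33 for miR-240-5p (0.889) and 1.37 for miR-240-3p (0.757) by edgeR. Over the 5 tested comparisons, 0 of 20 tests of an arm were called by edgeR and 0 by DESeq2. Of these, 2 had an unadjusted p under 0.05 in edgeR, miR-60-5p in gld-1::gfp against the control and miR-240-3p in alg-1 against gld-1. Both 5p arms had few reads in each library with endogenous probes, 0 to 5 for miR-60-5p and 0 to 9 for miR-240-5p. Their tests among those libraries could hardly pass the threshold, so they are not read as evidence of equal levels.

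The miRNAs whose levels were most like those of the members over the 16 libraries were found by Pearson's r of log2 CPM, as a description. The nearest to miR-60-5p was miR-240-5p (r = 0.91), from another chromosome, followed by miR-54-5p (0.88) and miR-36-3p (0.82). The nearest to miR-240-5p were miR-60-5p, miR-51-5p (0.86) and miR-54-5p (0.81). Over all 16 libraries the 5p arms were thus nearer to each other than to the 3p arms of their own hairpins (r = 0.52 for mir-60 and 0.34 for mir-240). Both 5p arms were chosen as high in the same gfp-probe libraries, so this nearness restates the choice and nothing is read from it. The libraries share probe classes, scaling factors and depth. Within the 6 gfp-probe libraries the r of the 5p arms was 0.76, and within the 10 others, where miR-60-5p had 0 to 5 reads, it was -0.04. Between the arms of 1 hairpin, r was 0.60 for mir-60 and 0.28 for mir-240 within the gfp-probe libraries. Within the 10 others it was 0.26 and 0.59, so there the order was reversed. miR-60-3p was nearest to miR-52-5p (0.76), miR-85-3p (0.74) and miR-785-3p (0.72), and miR-240-3p to miR-55-3p (0.74), miR-44-5p (0.63) and miR-85-3p (0.55).

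miR-54-5p and miR-51-5p, which come from hairpins of the mir-51 family, shared the high level with gfp probes. miR-54-5p had 44 to 5590 reads with gfp probes (median 465.5) and 6 to 42 with endogenous probes (median 23.5). Its highest counts, 854, 1202 and 5590, were those of the 3 libraries of prefix E, which also held the highest counts of miR-60-5p. miR-51-5p had 214 to 986 reads (median 384.5) against 15 to 121 (median 70.0), and its classes overlapped in log2 CPM, with 8.50 as the lowest gfp-probe value and 8.80 as the highest other value.

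mir-786, the neighbour of mir-240, did not share its pattern. miR-786-3p had 4 to 25 reads with gfp probes. With endogenous probes it had 248 and 150 reads for alg-1 and 0 to 11 in the 8 other libraries. In log2 CPM the alg-1 libraries stood at 9.82 and 9.86, above all other libraries, and miR-786-3p was higher in alg-1 than in gld-1 by 4.88 (SE 0.98, adjusted p = 4.72e-04, edgeR). In the same libraries miR-240-3p reached its highest level (7.28) in alg-1 replicate 1, without passing the threshold. miR-786-5p and both arms of mir-8203, which is annotated across mir-786 on the opposite strand, had 0 reads in all 16 libraries.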

How the data were processed

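The study's labels and methods describe small RNA libraries made from pulldown eluates with the SMARTer smRNA-Seq kit. Per these sources, the authors trimmed adaptors and poly(A) with cutadapt 1.14, filtered out Escherichia coli reads with Bowtie2 2.3.3.1 and counted known miRNAs with miRDeep2 and miRBase. The deposited values are raw read counts per mature miRNA and precursor, in 452 rows per library. For a miRNA with several rows the largest was used. A tail added before sequencing and removed by trimming blurs the 3′ ends of reads, which were not analysed here. The genome build behind the counts is not given in the sources used here, so coordinates were taken from Ensembl WBcel235 by name.

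A minimum of 10 reads in 2 or more libraries left 112 miRNAs, which held 99.78% or more of every library's reads. The 4 arms passed, both 5p arms through gfp-probe libraries alone. Counts were fitted with edgeR 4.0.16 in R 4.3.3 (TMM factors, robust quasi-likelihood, 1 mean for each of 8 groups, 16 libraries), with p-values adjusted by the Benjamini-Hochberg method over all 112 miRNAs and a threshold of 0.05. The SE is the log2 difference divided by the square root of F. Levels are log2 CPM with a prior count of 2. The common biological coefficient of variation was 0.532. The fit was tested on simulated data. Alternatives were other scalings, no filter, summed rows, DESeq2 1.42.0, the prefix or the replicate number as a factor, the compared groups alone and each library left out. Intervals of pooled ratios are exact binomial intervals at 95%.

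The members, the lists and the tests were chosen with earlier results of these data known. Named besides the members were miRNAs within 10 kb of either hairpin, the 3 nearest to each arm by correlation and those separating the probe classes. miRNA sequences were not used here, so miRNAs with a shared seed were not listed. Groups and replicate numbers come from the sample titles. Same-numbered libraries are not described as sharing a culture or day, so the numbers were not taken as pairs.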

Additional observations from a re-analysis of the deposited data

Results flagged for a closer look

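Among the 6 gfp-probe libraries, miR-240-3p was unusually low in gld-1::gfp replicate 2, with 3 reads and a log2 CPM of 4.37, where the other 5 lay between 6.18 and 7.03. The gap to the next library was 0.679 of the whole range, above Dixon's 95% critical value for 6 libraries. Chance marks about 1 in 20 groups in this way, and all 4 arms were screened in both probe classes, at both ends. The library was of middling depth (570986 reads), and miR-240-5p had 21 reads in it.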

How the results depend on the processing

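Under the alternative settings the 4 arms gave 491 values in the 5 tested comparisons. Of these, 483 kept their side of the threshold and, where called, their direction. No arm was called with the main settings, and most fits with 1 library left out drop a library of neither compared group. The count therefore says little about stability. Scaling by library totals raised the calls between gld-1::gfp and the control from 14 to 85, with -6.49, -4.61, -5.04 and -4.16 for miR-60-5p, miR-60-3p, miR-240-5p and miR-240-3p, and gave 33 calls in place of 3 in changed specificity. With the prefix as a factor there were 33 calls in gld-1::gfp (miR-60-5p at -3.49), 10 in place of 2 in seed destruction (miR-60-3p turned to -3.11), 12 in changed specificity (miR-60-3p at -3.90) and 17 in place of 32 between the probe classes (miR-60-5p 8.07, miR-60-3p 2.38, miR-240-3p -0.75). Fitting the compared groups alone gave 7 calls in gld-1::gfp and 5 in seed destruction, where relative log expression factors and summed rows each gave 1. Between the probe classes, N2 worms alone gave 5.09 for miR-240-5p and 1.33 for miR-240-3p, PD1 gave 7.70 for miR-60-5p, and PD2 gave 6.86 for miR-60-5p and 1.87 for miR-240-5p. Counts of calls between the probe classes include the members, which that contrast chose. The cause of these changes was not tested.

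With 1 library left out at a time, miR-60-5p in gld-1::gfp against the control ran from -3.78 (without control replicate 2, called) to -1.49 (without control replicate 1). Calls ran from 11 (without gld-1 replicate 2) to 23 in lin-41 against gld-1, where 17 were found with all libraries, from 1 to 2 in seed destruction and from 3 to 5 (without gld-1 replicate 1) in changed specificity. Between the probe classes, miR-60-5p ran from 9.86 to 11.48 and miR-240-5p from 3.54 to 4.41.

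With the replicate number as a block, gld-1::gfp against the control had 17 calls and miR-60-5p stood at -3.25 (adjusted p = 0.268, edgeR), and the block changed no call of an arm. Deviations of same-numbered libraries correlated at 0.276 and 0.164 for gld-1::gfp and the control and from -0.420 to 0.209 in the other comparisons. Of the separation between probe classes in every library, library totals left 0 of 112 miRNAs below. With fewer libraries, prefix E left out gave 2 of 112 and N2 worms 8 of 112. Low counts of the members with endogenous probes and the shallow control libraries limit all of these values.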

Other observations

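Among the other hairpins, mir-70 had the largest shift of arms in the opposite direction. Its mean log2 ratio of 5p to 3p reads was -10.97 in the 6 gfp-probe libraries and -2.71 in the 10 others, but its libraries overlapped between the probe classes. mir-54 moved in the same direction as mir-60 and mir-240, with a mean log2 ratio of -1.60 against -4.58, and its 3p arm stayed ahead on average in both classes.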
